A study of Mus musculus with 6 samples.

Results

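The translation initiation and elongation factor genes were followed in luminal mammary epithelial cells (MECs) of mice with a conditional deletion of the transcription factor gene Runx1. They were taken as every gene whose symbol begins with Eif1 to Eif6, Eef1 or Eef2, leaving out the Eif2ak kinases. A gene counted only if its symbol stood alone on a probe set (a group of short probes for 1 transcript). The choice was by name and not by level. Each of these genes was read from its brightest probe set with a single gene symbol. The array held 54 such genes among 18194, and 52 of them passed a filter on dim probe sets that 12152 genes passed. The genes Eif2s3y and Eif4a3 did not pass it. YFP+ luminal cells (Lin-CD24+CD29lo) had been sorted from 3 Runx1-null females (MMTV-Cre;Runx1L/L;R26Y) and 3 Runx1-WT females (MMTV-Cre;Runx1+/+;R26Y), all adult virgins on a mixed B6/129/FVB background, with 1 array per mouse. Mice of both genotypes carried MMTV-Cre, in which a mammary tumour virus promoter drives the Cre recombinase, and R26Y, a YFP reporter that Cre switches on. Runx1L is a conditional allele, and YFP marks cells in which Cre acted on the reporter. By qRT-PCR the study found Runx1 expression lost in YFP+ MECs of Runx1L/L females. In their YFP+ mature luminal cells, however, it was only slightly reduced. The study proposes that many of these mature cells escaped excision of at least 1 Runx1L copy. The exact age of the mice is not given in the sources used here. The study describes the mice as littermates, but which of them shared a litter is not known, and p-values measure the spread between separate mice.

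Protein synthesis starts when eIF2 brings the initiator tRNA to the small ribosomal subunit, where eIF1, eIF1A and eIF3 also bind. eIF4E holds the cap of the mRNA, eIF4A unwinds its leader with the help of eIF4B and eIF4H, and eIF4G joins cap, helicase and ribosome. After eIF5 and eIF5B have brought the large subunit in, eEF1A delivers aminoacyl-tRNAs and eEF2 moves the ribosome along. Luminal cells are the secretory lineage of the mammary gland, and these factors serve all of their protein output.

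The 6 arrays measured luminal cells by the markers chosen for this check. The summed intensity of 7 luminal genes, among them the keratins Krt8, Krt18 and Krt19, ran from 64734 to 71474 in Runx1-null mice and from 62914 to 66965 in Runx1-WT mice. Signal of other cells was also present: 6 stromal genes summed to 4581 to 12127 in Runx1-null and 11608 to 13641 in Runx1-WT mice, with all 6 below 0 in the difference between genotypes, and 8 basal genes summed to 4012 to 12573 in Runx1-null and 4190.3 to 9421 in Runx1-WT mice. The sums of 5 endothelial genes, 397 to 601 in Runx1-null and 636 to 980.5 in Runx1-WT mice, did not overlap. Those of 6 leukocyte genes were 324 to 467 in Runx1-null and 379 to 921 in Runx1-WT mice. In Runx1-WT mouse 3 Cd3e was at 294 and Ptprc at 205, against 22 to 46.5 and 18.3 to 47.4 in the other mice. Cd79a (56.2) and Adgre1 (198) were also highest in that mouse, whereas Itgam (12.8) was not and Csf1r (155) was lowest there. Within the luminal cells, all 6 progenitor markers tested had a log2 difference above 0 (median 0.17), Aldh1a3 without overlap, and 3 of 4 mature luminal markers lay below 0. Of these Cited1 (-1.17) and Foxa1 (-0.31) had an unadjusted p under 0.05 in limma, and none was called after adjustment. The Gapdh control signal at the 3' end exceeded that at the 5' end, a measure of how intact the RNA was, by a log2 value of 0.47 to 0.61 in Runx1-null and 0.46 to 0.47 in Runx1-WT mice. For beta-actin this value was 0.74 in Runx1-null mouse 3, whose array also had the lowest median intensity (106, against 129 to 163), and 0.44 to 0.52 in the other mice. The part of these differences in the values below was not tested. Runx1 itself was at 3473, 4820.0 and 2277 in Runx1-null mice and at 4082, 3855 and 2015 in Runx1-WT mice, and where its probes lie relative to the floxed exon was not analysed here, so it does not check the deletion. In such bulk samples fewer cells of a type and less RNA per cell cannot be told apart.

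The translation factor genes differed little between Runx1-null and Runx1-WT luminal cells, and none passed the test. Limma called 0 of the 52 genes at an adjusted p under 0.05 (background: 0% of the 12152 genes tested) and 1 of 52 at an unadjusted p under 0.05, the initiation factor gene Eif4b, against 1.93% of all genes. By the methods' t-test there were 2 genes at that unadjusted threshold (2.76% of all genes) and 0 after adjustment. The log2 difference (Runx1-null minus Runx1-WT) was above 0 for 33 genes and below 0 for 19, so that 63.5% lay above 0, where 44.6% of all tested genes did. Its median was 0.029, against -0.022 over all tested genes, and it ran from -0.24 for Eef1a2 to 0.45 for Eif4ebp1. The groups of mice did not overlap for 1 gene that was higher in Runx1-null cells, Eif2b3 (background 2.08%), and for 1 that was lower, Eif4b (background 3.47%). After median scaling, which lifted the median of the 52 genes to 0.120 and that of all tested genes to 0.069, 45 of the 52 genes lay above 0 (64.7% of all genes), and 12 genes had the other sign than in the deposited scaling. After quantile normalization 34 lay above 0 (53.5% of all genes), and 3 genes had the other sign.

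**Figure D1:**
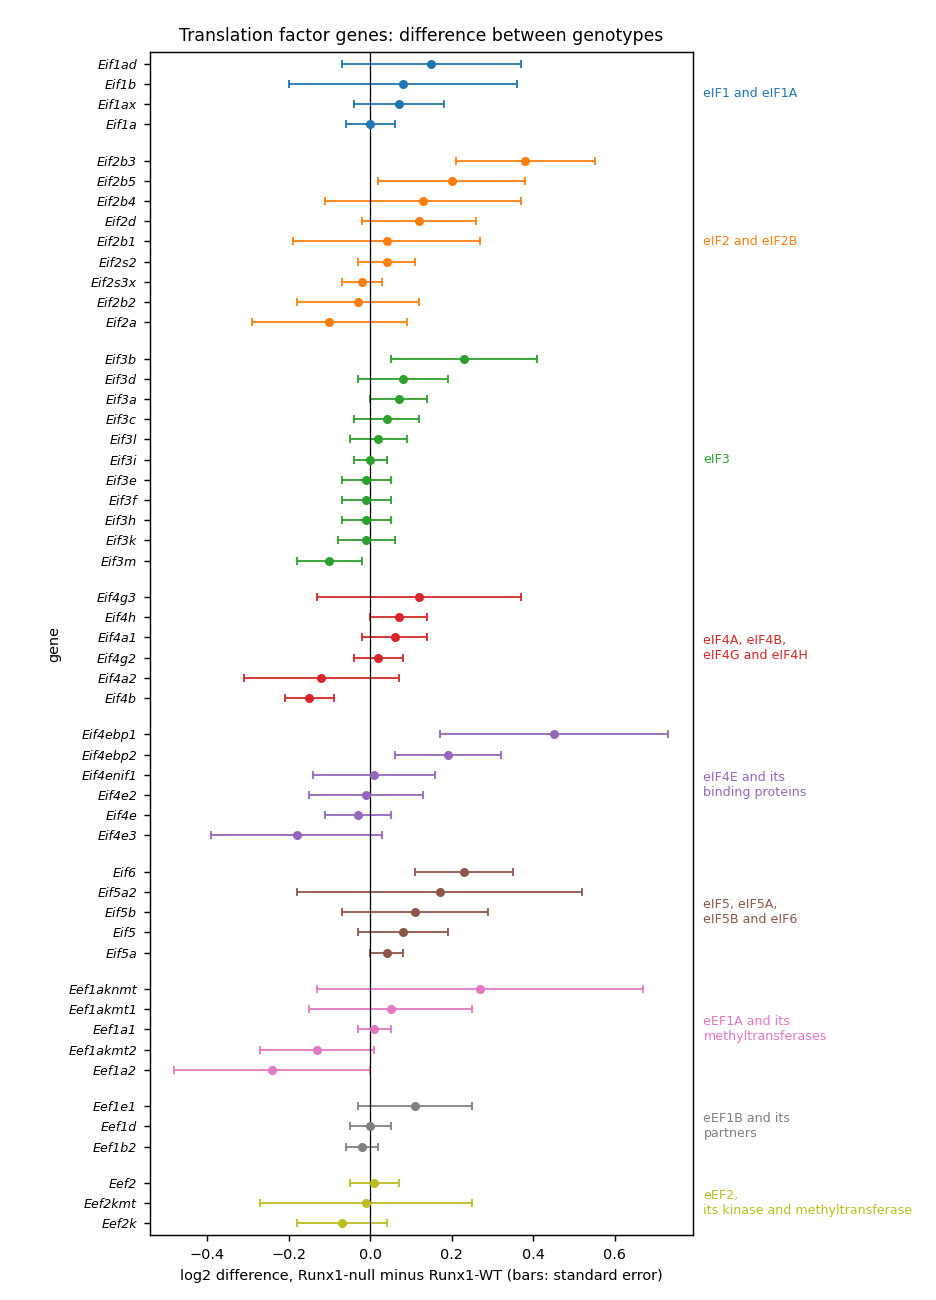
Log2 difference in intensity (Runx1-null minus Runx1-WT, horizontal axis) of each of the 52 genes that passed the filter, grouped by role, with points for the limma estimate and bars for its standard error (n = 3 mice each). Most genes lie close to 0, and the differences run from -0.24 for Eef1a2 to 0.45 for Eif4ebp1.

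The spread between mice was narrow for most of these genes. The median SD between mice of a genotype was 0.13 on the log2 scale for the 52 genes and 0.27 for all tested genes. The 95% confidence interval of the log2 difference lay wholly within -0.25 and 0.25 for 19 of the 52 genes (4.34% of all), and within -0.5 and 0.5 for 33, against 25.6% of all. Level went with this: 25 of the 52 genes had a mean intensity of 5000 or more, as 7.59% of all tested genes did, and the 922 genes that bright had a median SD of 0.10, against 0.06 for the 25. Among these 25 genes the differences ran from -0.15 to 0.08 and their median absolute size was 0.02, against 0.05 for all genes that bright. Their intensities stayed below the highest of any probe set, which was 17255 to 18153 on the 6 arrays, and whether bright probe sets respond less than in proportion was not tested. The other 27 genes had a median SD of 0.21 (0.29 for all genes under 5000) and a median difference of 0.11 (-0.03 for all). Of these 27 genes 19 lay above 0, against 44.5% of all genes under 5000.

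**Figure D2:**
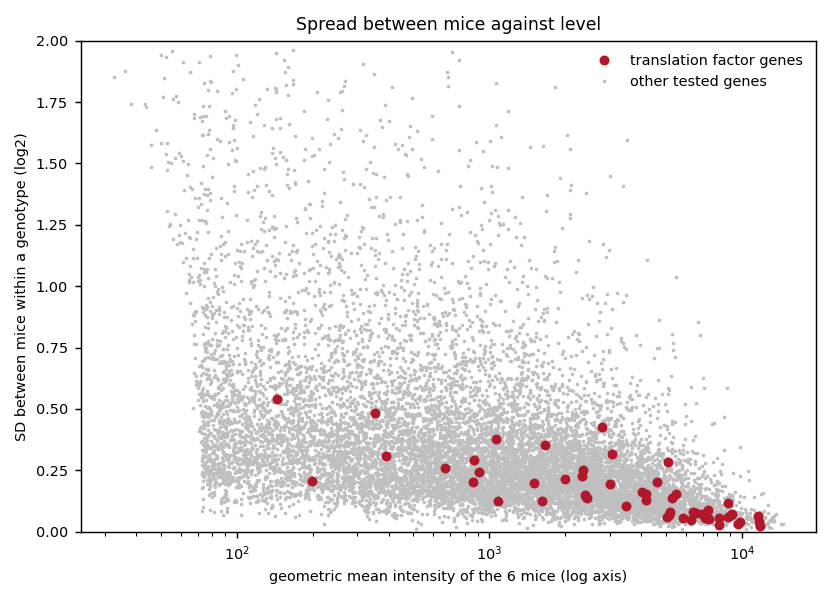
Standard deviation between mice within a genotype (log2, vertical axis) against geometric mean intensity (log axis) for the 52 translation factor genes and all other tested genes. The translation factor genes gather at the bright, narrow end, with a median SD of 0.13, and 49 other genes with an SD above 2 lie beyond the axis.

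The small factors that open the mRNA channel of the small subunit showed no separation. All 4 genes of eIF1 and eIF1A were at or above 0, with a median of 0.07. Eif1b, a close relative of the start-codon selection factor eIF1, was at 3615, 3272 and 1976 in Runx1-null mice and at 2842, 2043 and 3431 in Runx1-WT mice, with a log2 difference of 0.08 (standard error 0.28). Eif1ad, named for its eIF1A domain, was at 3666, 3511 and 2579 in Runx1-null mice and at 3030.2, 2233 and 3616 in Runx1-WT mice, a log2 difference of 0.15 (standard error 0.22). In both genes Runx1-null mice 1 and 2 and Runx1-WT mouse 3 were high and Runx1-null mouse 3 and Runx1-WT mouse 2 low, so the genotypes overlapped. Eif1a, which encodes eIF1A, had a difference of 0.00 (95% confidence interval -0.15 to 0.15).

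Eif2b3, which encodes the gamma subunit of eIF2B, was the gene of this family whose level lay higher in every Runx1-null mouse. eIF2B is the exchange factor that reloads eIF2 with GTP and is the point at which the eIF2 kinases slow initiation. Eif2b3 was at 1166, 1349 and 1178 in Runx1-null mice and at 936, 865 and 1042 in Runx1-WT mice. The lowest Runx1-null mouse thus lay above the highest Runx1-WT mouse. The log2 difference was 0.38 (standard error 0.17, 95% confidence interval -0.01 to 0.77). Limma gave an unadjusted p of 0.056 and an adjusted p of 1, and an exact two-sided permutation test gave p = 0.1, the smallest that 3 mice against 3 allow. It has 1 probe set on the array, so no other probe set bears on it, and after median scaling the genotypes overlapped, with a log2 difference of 0.47.

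The other eIF2B subunit genes did not separate the genotypes. Eif2b5, for the catalytic epsilon subunit, was at 1648, 1577 and 1586 in Runx1-null mice and at 1327, 1183 and 1725 in Runx1-WT mice, with a log2 difference of 0.20 (standard error 0.18). Values of Runx1-null mice lay close together, with Runx1-WT mouse 3 above all of them. A dim Eif2b5 probe set had a difference of -0.39 (standard error 0.33). The log2 differences of Eif2b4, Eif2b1 and Eif2b2 were 0.13, 0.04 and -0.03. All 5 eIF2B genes were lowest in Runx1-WT mouse 2, and 4 of the 5 highest in Runx1-WT mouse 3. Their median difference was 0.13. It was -0.08 without Runx1-WT mouse 2 and 0.32 if mouse 3 of that genotype was left out, so its direction rests on Runx1-WT mouse 2.

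Of eIF2 itself, Eif2s3x encodes the gamma subunit, which binds GTP and the initiator tRNA, and had one of the tightest sets of values. It was at 8008, 8101 and 8164 in Runx1-null mice and at 8454, 8057 and 8123 in Runx1-WT mice, a log2 difference of -0.02 (95% confidence interval -0.13 to 0.09). Its Y-linked copy, Eif2s3y, stayed between 15.7 and 26.2 in these 6 females, near the floor of 19.335 that was set for all values. Eif2s2, for the beta subunit, had a log2 difference of 0.04 (standard error 0.07). Eif2a and Eif2d, whose products can bring tRNA to the ribosome without eIF2, had differences of -0.10 (standard error 0.19) and 0.12 (standard error 0.14). In the whole group of eIF2 and eIF2B, 6 of 9 tested genes were above 0, and 8 of 9 were lowest in Runx1-WT mouse 2.

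The subunits of eIF3, the large scaffold that prepares the small ribosomal subunit for mRNA, centred on 0. Of 11 genes, 5 were above 0 and 6 below, with a median of 0.00 and a range from -0.10 to 0.23. Eif3b, a core subunit, was at 2552, 2665 and 2338 in Runx1-null mice and at 1866, 1926 and 2733 in Runx1-WT mice. Runx1-WT mice 1 and 2 were low, and Runx1-WT mouse 3 exceeded every Runx1-null mouse. The log2 difference was 0.23 (standard error 0.18; limma, adjusted p = 1). Eif3m, at the opposite end, was at 4771, 5072 and 4761 in Runx1-null mice and at 5220.4, 4989 and 5460.2 in Runx1-WT mice, a log2 difference of -0.10 (standard error 0.08). Only Runx1-null mouse 2 and Runx1-WT mouse 2 crossed in Eif3m, and its second probe set had a difference of -0.05. The remaining 9 subunit genes lay between -0.01 and 0.08, and 6 of the 11 were lowest in Runx1-WT mouse 2. Eif3j1 and Eif3j2 were read only by probe sets that they share, with differences of 0.11, 0.12 and 0.06. Eif3g was not analysed here.

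Eif4b had the smallest unadjusted p of the 52 genes in the main limma fit, and its level was lower in every Runx1-null mouse. Its product stimulates the eIF4A helicase and is a target of S6 kinase. Eif4b was at 6492, 6730.0 and 7079 in Runx1-null mice and at 7668, 7640.4 and 7269 in Runx1-WT mice. Every Runx1-null mouse lay below every Runx1-WT mouse, although the gap between Runx1-null mouse 3 and Runx1-WT mouse 3 was small. The log2 difference was -0.15 (standard error 0.06, 95% confidence interval -0.30 to -0.01; limma, unadjusted p = 0.0375, adjusted p = 1). An exact two-sided permutation test gave p = 0.1, the smallest possible. The other 2 Eif4b probe sets did not overlap between genotypes either. The brighter of them was at 6037, 5983 and 6227 in Runx1-null mice and at 6856, 6684 and 6726 in Runx1-WT mice (log2 difference -0.15, standard error 0.05). The dimmer was at 2475, 2265 and 2565 in Runx1-null mice and at 3069, 2681 and 3037 in Runx1-WT mice (log2 difference -0.27, standard error 0.11). These probe sets read the same RNA and are not further replicates. The difference was -0.06 after median scaling, where the genotypes overlapped, and the unadjusted limma p was 0.225 with a variance prior that did not follow the level. By the methods' t-test the unadjusted p of Eif4b was 0.0249, and that of Eif2b3 was smaller, at 0.0214.

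**Figure D3:**
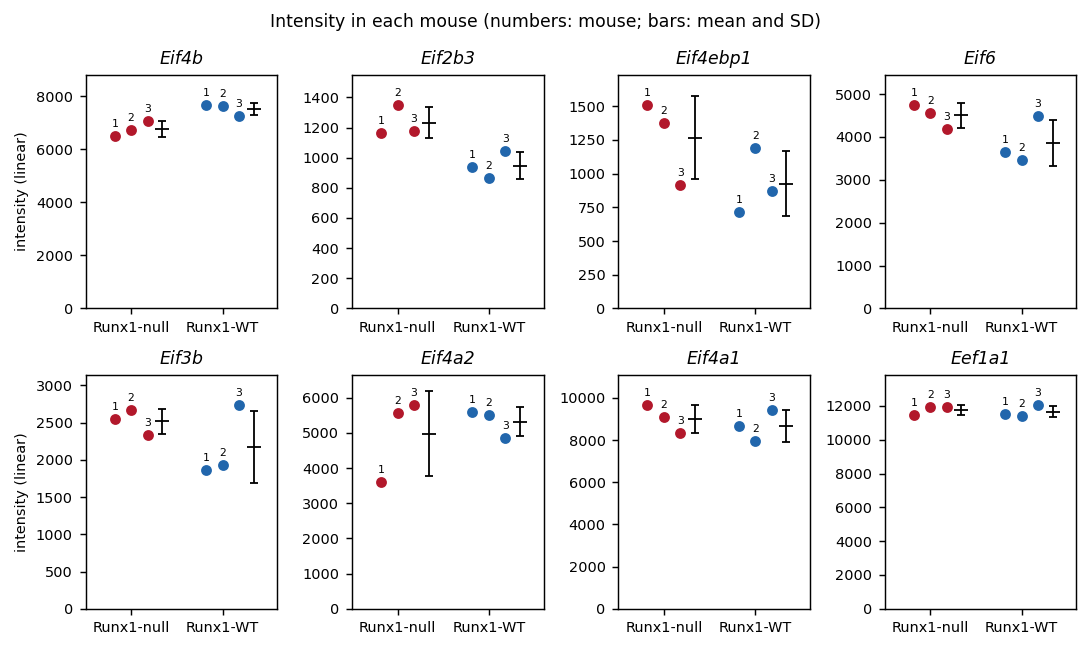
Linear intensity of 8 named genes in each mouse (points, numbered by mouse), with the mean and SD of each genotype beside the points (n = 3 each), Runx1-null at the left. The genotypes do not overlap for Eif4b and Eif2b3 and overlap for the other 6 genes.

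The helicase genes themselves gave no such separation. Eif4a1, the main eIF4A helicase, was at 9649, 9093 and 8318 in Runx1-null mice and at 8646, 7938 and 9448 in Runx1-WT mice, a log2 difference of 0.06 (standard error 0.08). Its paralogue Eif4a2 was at 3594, 5568 and 5785 in Runx1-null mice and at 5607, 5503 and 4846 in Runx1-WT mice, a difference of -0.12 (standard error 0.19). Runx1-null mouse 1 stood alone at the bottom for Eif4a2, and the other Runx1-null mice were within or just above the Runx1-WT range of that gene. For Eif4a1 Runx1-null mouse 1 was the highest, with Runx1-WT mouse 3 close below it. The difference of Eif4a2 was 0.10 without Runx1-null mouse 1. Eif4g2, Eif4h and Eif4g3 had differences of 0.02, 0.07 and 0.12 (standard errors 0.06, 0.07 and 0.25). Eif4a3, the helicase of the exon junction complex, was at 10.1 to 19.2 on its single-symbol probe set, which did not pass the filter, and a probe set it shares with Gm5576 had a difference of 0.02.

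Promoter sequence was matched for 43 of the 54 genes from RefSeq (GRCm38.p6), using the 250 bases before each annotated start, to show which letters the promoters of the family share. Eif2b3, Eif4ebp1 and Eif6 were not matched. The E-box CACGTG, the letters bound by MYC and related factors, was found in 11 of the 43 (25.6%), against 9.79% of the 9804 tested genes with a window and 6.02% of all 32851 windows. The RUNX core TGTGGT, searched on both strands, was found in 5 genes (11.6%; 12.7% of tested genes and 14% of windows). These were Eef1a1, Eef1e1, Eif3a, Eif5a2 and Eif5b. The ATF4 element TGATGNAA, searched on both strands, was found in Eef2k and Eif2s3x (4.65%; 2.36% of tested genes and 3.45% of windows). The 11 tested genes with an E-box had a median log2 difference of 0.04, as did the 30 without, and 7 of the 11 and 19 of the 30 were above 0. The following stretches hold an E-box, in capitals, of 5 genes. Its first base lies 43 bases before the start in Eef2, 68 in Eif3f, 189 in Eif4a1, 64 in Eif4e and 96 in Eif4h. Eif4e has another, 228 bases before its start, that is not printed. For Eif4b the stretch is the 100 bases before the start, in which none of these motifs was found. A match is a description of the letters and not a binding site.
Eef2, chr10:81176570-81176611, plus strand: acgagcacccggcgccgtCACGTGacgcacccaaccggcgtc
Eif3f, chr7:108934329-108934370, plus strand: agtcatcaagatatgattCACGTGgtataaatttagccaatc
Eif4a1, chr11:69672589-69672630, minus strand: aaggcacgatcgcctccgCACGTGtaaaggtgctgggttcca
Eif4e, chr3:138527186-138527227, plus strand: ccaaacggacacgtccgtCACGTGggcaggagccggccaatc
Eif4h, chr5:134639482-134639523, minus strand: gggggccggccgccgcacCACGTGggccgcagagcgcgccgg
Eif4b, chr15:102073673-102073772, plus strand: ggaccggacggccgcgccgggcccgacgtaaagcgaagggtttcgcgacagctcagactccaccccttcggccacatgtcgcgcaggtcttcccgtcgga

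The cap-binding step held the gene with the largest difference. Eif4ebp1 encodes 4E-BP1, which blocks eIF4E until mTOR phosphorylates it, and is also a target of ATF4. Its log2 difference was 0.45 (standard error 0.28, 95% confidence interval -0.20 to 1.11; limma, adjusted p = 1). Its values were 1509, 1379 and 917 in Runx1-null mice and 715, 1191 and 870.1 in Runx1-WT mice. Runx1-null mice 1 and 2 were highest and Runx1-WT mouse 1 lowest, but Runx1-WT mouse 2 exceeded Runx1-null mouse 3 (exact two-sided permutation test, p = 0.2). The other Eif4ebp1 probe sets had differences of 0.45 and 0.76 (standard errors 0.28 and 0.63).

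Eif4ebp2, for the related 4E-BP2, was at 4656, 4061 and 4207 in Runx1-null mice and at 3436, 3523 and 4429.7 in Runx1-WT mice, a log2 difference of 0.19 (standard error 0.13). Runx1-WT mouse 3 lay within the Runx1-null range, and the other 4 probe sets of Eif4ebp2, at 0.01, -0.12, -0.12 and -0.07, were close to 0 or below it. Eif4e3, a divergent cap-binding protein, was at 1027, 763 and 797 in Runx1-null mice and at 799, 1129 and 1002 in Runx1-WT mice, a difference of -0.18 (standard error 0.21). The cap-binding protein gene Eif4e had a difference of -0.03 (standard error 0.08), Eif4e2, for the repressive homologue 4EHP, of -0.01, and Eif4enif1, for the eIF4E transporter, of 0.01. The remaining 4E-BP gene, Eif4ebp3, was read only by a probe set shared with Ankhd1, at a difference of -0.09.

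**Figure D4:**
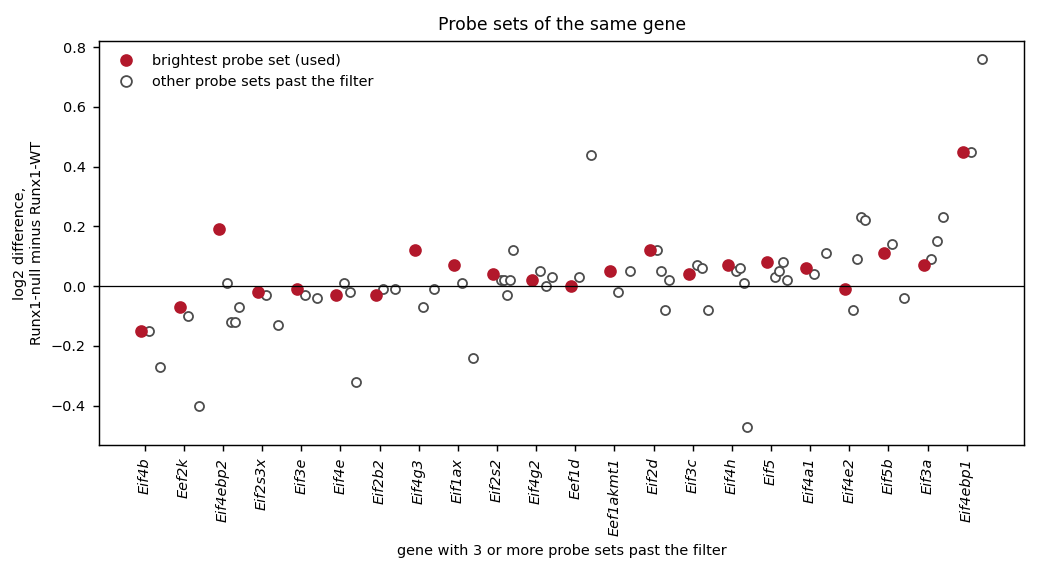
Log2 difference (Runx1-null minus Runx1-WT) of every probe set past the filter for the 22 genes with 3 or more, ordered by their median. All probe sets lie below 0 for 5 of these genes, Eif4b among them, and above 0 for 4, Eif4ebp1 among them. The brightest probe set of Eif4ebp2, at 0.19, stands above its other 4.

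Over all probe sets of the family the same held as over the brightest. Of 142 probe sets 125 passed the filter, and limma fitted over 27061 probe sets called 0 of them, with 2 at an unadjusted p under 0.05, both of Eif4b (1.33% of all probe sets). Of 34 genes with 2 or more probe sets past the filter, 20 had all of them on 1 side of 0 and 14 on both sides. The difference between probe sets of a gene had a median range of 0.13 and reached 0.59 for Eif2b5. A probe set of Eef1d, dimmer than the one used, also did not overlap between genotypes, at 468, 308 and 263 in Runx1-null mice and 255, 233 and 257 in Runx1-WT mice, while the brightest Eef1d probe set had a difference of 0.00.

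The 5 genes of eIF5, eIF5A, eIF5B and eIF6 were all above 0. They had a median of 0.11 and a range from 0.04 to 0.23, and none passed the test. When single mice were left out, the lowest differences of Eif5, Eif5b and Eif5a2 were -0.01, -0.03 and -0.10. Eif6, whose product keeps the large ribosomal subunit from joining too early, was at 4745, 4570.0 and 4194 in Runx1-null mice and at 3643, 3457 and 4479.6 in Runx1-WT mice. Runx1-WT mice 1 and 2 lay below every Runx1-null mouse, and Runx1-WT mouse 3 within their range. The log2 difference was 0.23 (standard error 0.12; limma, adjusted p = 1), and the second Eif6 probe set had -0.02 (standard error 0.22). Eif5a encodes the hypusinated factor that helps ribosomes past difficult sequences, and was at 10044, 9818 and 10036 in Runx1-null mice and at 9330.4, 9963 and 9791 in Runx1-WT mice, a difference of 0.04 (95% confidence interval -0.06 to 0.14). Its paralogue Eif5a2 varied far more, at 537, 417 and 229 in Runx1-null mice and at 329, 275 and 400.1 in Runx1-WT mice (difference 0.17, standard error 0.35). For Eif5a2 the highest and the lowest mouse were both Runx1-null.

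The elongation machinery was flat at its bright core. Eef1a1, the main eEF1A gene, was at 11443, 11919 and 11949 in Runx1-null mice and at 11526, 11421 and 12037 in Runx1-WT mice, a log2 difference of 0.01 (95% confidence interval -0.08 to 0.11). Eef1b2, for a subunit of the eEF1B exchange factor, was at 11655, 11894 and 11647 in Runx1-null mice and at 11655, 12005 and 12124 in Runx1-WT mice, a difference of -0.02 (95% confidence interval -0.11 to 0.06). Eef2, the translocase gene, was at 8778, 8374 and 9383 in Runx1-null mice and at 8863, 8679 and 8749 in Runx1-WT mice, a difference of 0.01 (95% confidence interval -0.12 to 0.14). In all of them the genotypes overlapped. Eef1g, the remaining eEF1B subunit gene, was read only by probe sets shared with Gm29753, the brighter of which had a difference of 0.01.

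Around this core lay dimmer genes with wider spread. Eef1a2, the eEF1A form of muscle and nerve, was at 174, 183 and 189.9 in Runx1-null mice and at 206, 267 and 181 in Runx1-WT mice, a difference of -0.24 (standard error 0.24) to which Runx1-WT mouse 2 gave the highest value. It was -0.08 without that mouse. Eef1aknmt, for a methyltransferase of eEF1A, ranged from 92.9 to 222 in Runx1-null and from 100.3 to 164 in Runx1-WT mice (difference 0.27, standard error 0.40). Eef1akmt2, for another of these enzymes, was at 2029, 2361 and 2512 in Runx1-null mice and at 2794, 2356 and 2397 in Runx1-WT mice, a difference of -0.13 (standard error 0.14). Eef1e1, which encodes a small scaffold protein of the tRNA synthetase complex, had 0.11 (standard error 0.14). Eef2k, for the kinase that switches eEF2 off, was at 3759.9, 3367 and 3064 in Runx1-null mice and at 3538, 3539.8 and 3545 in Runx1-WT mice, a difference of -0.07 (standard error 0.11). The Runx1-WT mice were nearly equal for Eef2k and the Runx1-null mice lay on both sides of them.

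Single mice stood at the end of the range for many of the genes. Runx1-WT mouse 2 held the lowest value of 21 of the 52 genes (40.4%; 25% of all genes), and Runx1-WT mouse 3 the highest of 15 (28.8%, against 24.5%). Runx1-null mouse 1 held the highest of 13 (25%, against 15.9%). The median deviation of the 52 genes from their own means was 0.03, 0.01 and 0.00 in Runx1-null mice 1 to 3 and -0.01, -0.08 and 0.07 in Runx1-WT mice 1 to 3. Over all tested genes it was -0.02, 0.04 and -0.03 in Runx1-null mice and 0.05, -0.06 and 0.04 in Runx1-WT mice, so Runx1-WT mouse 2 was the lowest there too. The proliferation marker Mki67 also differed between mice, at 1026, 101 and 63.2 in Runx1-null mice 1 to 3 and at 539, 126 and 712 in Runx1-WT mice 1 to 3. Over 7 such markers the summed intensity ran from 6126 to 19702 in Runx1-null and from 6173 to 16373 in Runx1-WT mice, and its part in the pattern was not tested. Without Runx1-WT mouse 2, 21 of the 52 genes were above 0 (36.9% of all genes), with a median of -0.015 (-0.063 over all genes). A total of 18 genes kept their sign without each mouse in turn, 12 above 0 and 6 below, and Eif2b3, Eif4ebp1, Eif6, Eif3b and Eif4b were among them. For Eif2b3 and Eif4b the lack of overlap between genotypes fixed this outcome. Eif4ebp1, Eif6 and Eif3b were named for large differences in the same mice, so their kept sign adds no support. The share of all tested genes that kept their sign was not computed.

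**Figure D5:**
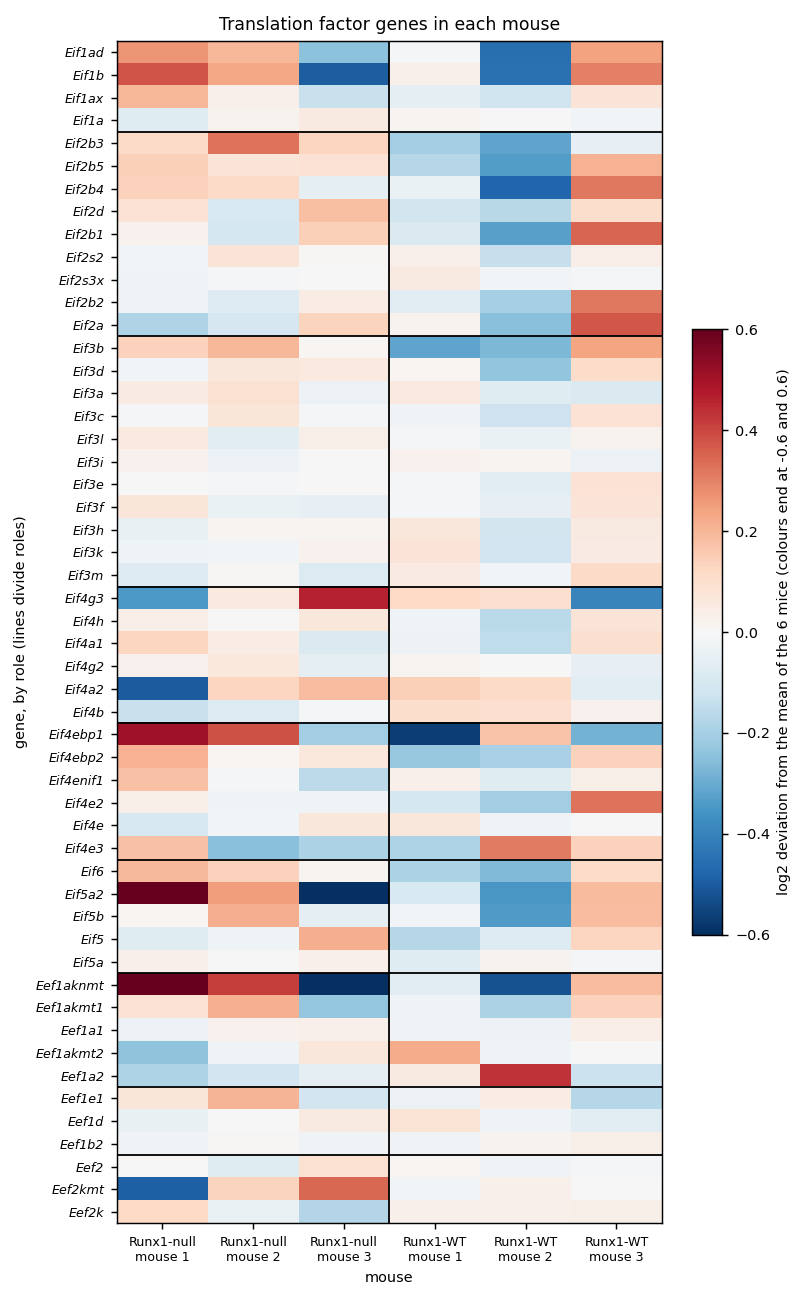
Log2 deviation of each of the 52 genes from its mean over the 6 mice, Runx1-null mice at the left and Runx1-WT mice at the right, with lines between roles. Runx1-WT mouse 2 is the lowest for 21 genes, among them all 5 eIF2B genes, and Runx1-WT mouse 3 the highest for 15.

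The animal numbers of the mice fell into a lower range (2 mice of each genotype) and an upper range (1 of each), which the labels do not call a batch. Within the lower range 35 of the 52 genes were above 0 (51.7% of all genes), with a median of 0.075. In the upper pair, Runx1-null mouse 3 and Runx1-WT mouse 3, 19 were above 0 (40.7% of all genes), with a median of -0.045. A total of 38 genes (73.1%; 68.7% of all tested) had opposite signs in the ranges, and 27 of these were above 0 in the lower range. Only 14 genes shared their sign, 8 above 0 and 6 below. Of the 14, Eif4b had -0.21 in the lower and -0.04 in the upper range, Eif2b3 had 0.48 and 0.18, and Eif4ebp1 0.64 and 0.08. The genotypes did not overlap for Eif4b and Eif2b3, so the sign of these genes could not differ between the ranges. Among the 38 with opposite signs were Eif3b (0.46 and -0.22), Eif6 (0.39 and -0.10) and Eif2b5 (0.36 and -0.12). With the range as a block limma called 0 of the 52 genes, and Eif4b had an unadjusted p of 0.0496.

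Genes that act beside the factors were also examined by list, and limma called 0 of the 56 genes tested in them, with 0 at an unadjusted p under 0.05. Of 7 termination and recycling genes 6 were above 0, with a median of 0.09. Hbs1l, for a ribosome rescue GTPase, was at 2258, 2289 and 2267 in Runx1-null mice and at 1933, 1765 and 2178 in Runx1-WT mice, a log2 difference of 0.22 (standard error 0.13) without overlap. Its partner Pelo (0.11, standard error 0.18) also did not overlap, which made 2 of the 56 genes higher without overlap (2.08% of all genes), and 1 was lower, the hypusine enzyme gene Dohh (-0.09, standard error 0.16; 3.47% of all genes). Gspt1, the release factor eRF3, had a difference of 0.23 (standard error 0.14), but its genotypes overlapped. The 8 mitochondrial factor genes had a median of 0.13, with 6 above 0, and Gfm1, a mitochondrial elongation factor G, had 0.27 (standard error 0.20).

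The lists of genes that control the factors had medians close to 0. Single genes in them ran from -0.43 for Dph1 (standard error 0.38) to 0.43 for Eif2ak4. The 13 genes of mTOR and MNK signalling had a median of 0.01, with 7 above 0. Among them were Ddit4, an inhibitor of mTOR, with 0.33 (standard error 0.23), and Larp1, which binds the mRNAs of the translation machinery, with -0.10 (standard error 0.08). The 8 genes of eIF2 kinases and phosphatase subunits had a median of -0.05, with 3 above 0, and the eIF2 kinase gene Eif2ak4 had 0.43 (standard error 0.24). The 6 poly(A)-binding genes had a median of 0.01 with 4 above 0, the 8 hypusine and diphthamide enzyme genes -0.01 with 4 above 0, and the 6 genes of scanning helicases and non-canonical initiation -0.01 with 2 above 0. Pan3, of the poly(A) nuclease, had -0.20 (standard error 0.14), Dph6, of diphthamide synthesis, 0.24 (standard error 0.16), and Mcts2, of non-canonical initiation, -0.27 (standard error 0.18).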

How the data were processed

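Total RNA of the sorted cells was amplified with the NuGEN Ovation V2 system, hybridized to 430 2.0 arrays (Affymetrix, mouse) and normalized by the authors with dChip, whose version is not given in the sources used here. The deposited values are linear intensities of 45101 probe sets, 1 array per mouse; with no counts, the precision is limited by the number of arrays, 6. The platform annotation gave 1 symbol for 34958 probe sets, several for 932 and none here for 9211. Genes were read from the brightest of their single-symbol probe sets. Runx1, Gata3, Elf5, Foxa1, Cited1 and Esr1 were instead read from probe sets that the study's figure legends name. A floor at the 20th percentile of all values (19.335) was applied, then log2. Genes at or above the 40th percentile in mean intensity (73.5) were tested with lmFit and eBayes with trend (limma 3.58.1, R 4.3.3), Benjamini-Hochberg adjusted over all of them. The code was tested on simulated data. The genes named are the 6 with the largest and the 6 with the smallest limma t, the 2 with the largest absolute difference in each role, fixed paralogue pairs and the 4E-BP genes, with others named by their level, probe sets or place in a group, and up to 2 genes with the smallest p in each list. Members and lists were chosen with earlier results of these data known. Eif1, Eif2s1, Eif3g and Eif4g1 were not analysed here. Alternatives were other filters (none, or the 60th percentile), a pseudocount, quantile normalization and median scaling, all probe sets of a gene or only those without a suffix, omitting single mice, the animal number range (as a block, or each range alone), other eBayes settings and the methods' t-test.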

Additional observations from a re-analysis of the deposited data

How the results depend on the processing

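No gene of the family had an adjusted p under 0.05 in the main setting or in any of the 18 alternatives with a test, 1 of them the methods' t-test and the others limma. The count at an unadjusted p under 0.05, 1 as reported, was 2 with no filter (2.94% of all genes), with the filter at the 60th percentile (1.91%), after quantile normalization (1.78%), with the mean of all probe sets of a gene (2.07%) and by the methods' t-test (2.76%), 0 after median scaling (1.01%), 9 within the lower range of animal numbers (15.4% of all genes) and 0 to 5 when leaving out each mouse, 5 being without Runx1-WT mouse 3 (6.73%). The count without overlap, 1 in each direction as reported, was 0 in both after median scaling (2.31% of all genes higher and 1.17% lower). Higher in Runx1-null, it was 2 with the mean of all probe sets (1.88% of all genes) and 22 in the lower range (26.1%). It was 2 to 10 leaving out each mouse (3.64% to 12.4% of all genes), 10 being without Runx1-WT mouse 3. The count was 7 if Runx1-null mouse 3 was left out (9.69%). In the upper pair, with 1 mouse of each genotype, a lack of overlap only repeats the sign. Lower in Runx1-null, the count was 2 after quantile normalization (2.58% of all genes) and 3 in the lower range (24.5%). Leaving out each mouse gave 1 to 4 (4.28% to 13.3% of all genes), 4 being without Runx1-WT mouse 2 (9.87%). The count above 0, 33 as reported, was 19 in the upper pair and 21 to 37 leaving out each mouse, 21 being without Runx1-WT mouse 2. The median, 0.029 as reported, was 0.120 after median scaling (0.069 over all genes) and -0.045 in the upper pair (-0.092 over all genes). It ran from -0.015 without Runx1-WT mouse 2 to 0.048 without Runx1-WT mouse 3 when leaving out each mouse, against a pooled SD of 0.051 between mice in the median deviation of the genes. Smaller groups overlap less by their construction; the cause of the other shifts was not tested. No paired analysis was possible because the labels give the mice no shared replicate numbers. Dim genes had the widest spread between mice, and the 95% interval of the difference lay within 0.25 of 0 for 19 genes.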
